A study of Homo sapiens with 4 samples.

Results

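In HepG2 cells, an established human hepatocellular carcinoma line, 10669 chromatin regions carried an ATAC-seq peak in both libraries treated with the EZH2 inhibitor tazemetostat and in exactly 1 of the 2 control libraries. They were selected on their measured peak calls: peaks of the 4 libraries were merged where they overlapped by 1 bp or more, which gave 80551 regions, and those called in both tazemetostat libraries and a single control library were kept. They made up 13.2% of all merged regions and 28.0% of the 38143 regions called in both tazemetostat libraries. Of the others called in both tazemetostat libraries, 16430 (43.1%) were called in all 4 libraries, here the shared regions, and 11044 (29.0%) in no control library. The reverse pattern, with a peak in both control libraries and exactly 1 tazemetostat library, was seen in 711 regions. Of these, 385 (0.478% of all merged regions) had the treated peak in tazemetostat replicate 1 and 326 (0.405%) in replicate 2. The tazemetostat libraries held 55313 and 54157 peaks and the controls 26133 and 34768, so the numbers of the opposite patterns are not on an equal footing.

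The series compared untreated HepG2 cells with HepG2 cells given 5 µM tazemetostat, dissolved in DMSO, for 48 h, with 2 libraries for each and 50000 cells per library. The labels give neither a vehicle for the controls nor separate cultures for the replicates, so the spread between replicates may be technical. HepG2 is a single tumour-derived line, and its transcription and chromatin differ from those of hepatocytes in tissue. Mapped tags ranged from 17191428 to 26564400 per library. Promoters of 5 to 6 of 7 hepatocyte markers carried a peak in each library, none of 4 endothelial markers did in any, and 1 to 3 of 4 markers did for stellate, immune and cholangiocyte cells. Peaks held 4.32% and 5.69% of the mapped tags in control replicates 1 and 2, against 11.5% and 9.81% in tazemetostat replicates 1 and 2. Peaks were also called with a fragment length of 200 bp in the controls and of 144 bp in the treated libraries, per the file headers, and this difference and the drug cannot be told apart. The study's methods describe a DNase I step against free DNA and the DNA of dead cells. They name it for the tazemetostat-treated cells and do not say whether the controls received it. If they did not, this step and the drug cannot be told apart either.

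EZH2 is the catalytic subunit of polycomb repressive complex 2, which methylates lysine 27 of histone H3 at silenced genes, and tazemetostat blocks this activity. ATAC-seq reads out where a transposase can insert adapters into DNA, so promoters and enhancers bound by transcription factors appear as peaks. A peak list is a thresholded readout: a site just under the threshold in a library is not listed there and carries no value. Because the choice of regions used the peak calls of the treated and untreated libraries, the values below describe these regions and no test of treatment was made on them.

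Sequences from 8 of the regions (hg38 reference, plus strand) show what kind of DNA they held. Each is taken from the central 300 bp of its region, as the middle 200 bases of the longest stretch outside annotated untranslated regions, or the whole stretch where it is shorter, so some do not lie at the exact centre. Capitals mark matches to 9 short motifs of liver and general transcription factors, and lines without capitals held no match. The first, at the promoter of SFXN5 (chr2:73071383-73071582), had the highest ratio of tazemetostat to control signal among well-covered regions called in control replicate 1, and the next, at SLCO4A1 (chr20:62667086-62667285), had one of the highest levels.
SFXN5: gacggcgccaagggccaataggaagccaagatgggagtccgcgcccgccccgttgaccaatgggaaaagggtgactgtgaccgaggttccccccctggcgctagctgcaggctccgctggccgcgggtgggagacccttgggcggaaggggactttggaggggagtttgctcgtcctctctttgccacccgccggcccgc
SLCO4A1: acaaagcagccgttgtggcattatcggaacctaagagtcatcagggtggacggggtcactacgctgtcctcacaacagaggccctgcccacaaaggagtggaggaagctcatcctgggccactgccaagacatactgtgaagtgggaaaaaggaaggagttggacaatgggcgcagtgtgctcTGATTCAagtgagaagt
The capitals in SLCO4A1 are a match to the AP-1 motif TGANTCA, bound by JUN and FOS dimers. The next lines come from 2 regions at the other end of the ranking, where the control peak was higher than both tazemetostat peaks. One lies in an intron of TMEM242 (chr6:157312883-157313082) and the other is intergenic on chromosome 4 (chr4:49710583-49710782).
TMEM242 intron: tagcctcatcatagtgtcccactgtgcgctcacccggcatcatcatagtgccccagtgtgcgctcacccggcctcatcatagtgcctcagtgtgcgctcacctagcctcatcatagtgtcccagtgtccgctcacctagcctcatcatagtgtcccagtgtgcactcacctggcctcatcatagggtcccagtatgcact
Chromosome 4: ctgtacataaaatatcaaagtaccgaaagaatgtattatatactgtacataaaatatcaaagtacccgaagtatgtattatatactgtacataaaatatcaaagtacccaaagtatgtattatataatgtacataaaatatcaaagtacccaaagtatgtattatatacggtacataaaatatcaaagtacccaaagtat
Both are tandem repeats. Shifted against itself by 34 bases, the central 300 bp of the TMEM242 region matched at 89.5% of positions, and the chromosome 4 region matched at 90.3% when shifted by 42 bases. The last lines come from promoters of genes discussed below, namely CEBPA (chr19:33302657-33302856), C4BPA (chr1:207104015-207104214), RNF2 (chr1:185045406-185045525) and RIGI (chr9:32526256-32526455).
CEBPA: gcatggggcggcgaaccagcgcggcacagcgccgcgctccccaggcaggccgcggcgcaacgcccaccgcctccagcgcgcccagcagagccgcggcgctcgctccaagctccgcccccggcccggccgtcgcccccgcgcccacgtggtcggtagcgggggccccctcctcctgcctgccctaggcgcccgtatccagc
C4BPA: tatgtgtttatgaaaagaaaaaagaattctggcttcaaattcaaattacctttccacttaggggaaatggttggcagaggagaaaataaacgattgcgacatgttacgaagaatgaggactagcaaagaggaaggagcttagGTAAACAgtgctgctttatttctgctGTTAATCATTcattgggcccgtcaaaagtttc
RNF2: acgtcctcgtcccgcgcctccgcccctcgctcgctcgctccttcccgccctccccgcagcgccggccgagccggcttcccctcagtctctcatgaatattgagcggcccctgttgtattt
RIGI: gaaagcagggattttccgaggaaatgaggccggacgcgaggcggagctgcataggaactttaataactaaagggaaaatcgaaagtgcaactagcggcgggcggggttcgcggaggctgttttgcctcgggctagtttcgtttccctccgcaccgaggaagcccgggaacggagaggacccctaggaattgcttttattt
The capitals in C4BPA are a FOXA match (TGTTTAC on the opposite strand) and an HNF1 match. The CEBPA window is GC-rich, with 80.5% G and C, whereas the C4BPA window has 38%.

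To see which control library carried the peak, the regions were split by the library. The peak was in control replicate 2 in 8544 regions (80.1%) and in control replicate 1 in 2125 (19.9%). Control replicate 2 was the deeper of the pair, with 23800380 against 17191428 mapped tags and 34768 against 26133 peaks. With only the 26133 strongest peaks of each library the share in control replicate 2 was 70.3%, and with only peaks of a local fold of 8 or more it was 72.9%. The score that the peak caller gives each peak was compared with the tag threshold of the other control library after scaling to its depth. In the regions called in control replicate 2, the median score of 20 became 14.4 at the depth of replicate 1, against a threshold of 14 tags, and 46.0% fell below that threshold, compared with 21.0% of the regions called in all 4 libraries. In the regions called in control replicate 1, the median scaled score was 23.5 against a threshold of 16, and 0 of 2125 fell below it, as the scaling to a deeper library fixes. The caller also asked for 4 times the tag density of the 10 kb around a peak.

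The normalised tag count, which is the number of tags in a peak per 10 M mapped tags, lay between those of the other sets. This order is tied to the tag threshold that a control call has to pass. In the regions called in control replicate 1, the median was 10.5 in that library, against 17.1 in the first and 15.4 in the second tazemetostat replicate. In the regions called in control replicate 2, the corresponding medians were 10.1, 16.1 and 14.7. Regions called in all 4 libraries had medians of 16.3 and 19.7 in the controls and 33.3 and 29.0 under tazemetostat, while regions called in the tazemetostat libraries only had 11.1 and 10.2. The members were thus about as strong under tazemetostat as the shared regions were in the controls. Their control peaks rested on few tags, with a median of 18 recovered tags in control replicate 1 and 24 in control replicate 2. The 2 tazemetostat replicates differed by 0.16 in their median log2 ratio across the members, with an SD of 0.49 among regions, so a change of less than about this size at one region is within the spread between replicates.

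**Figure D1:**
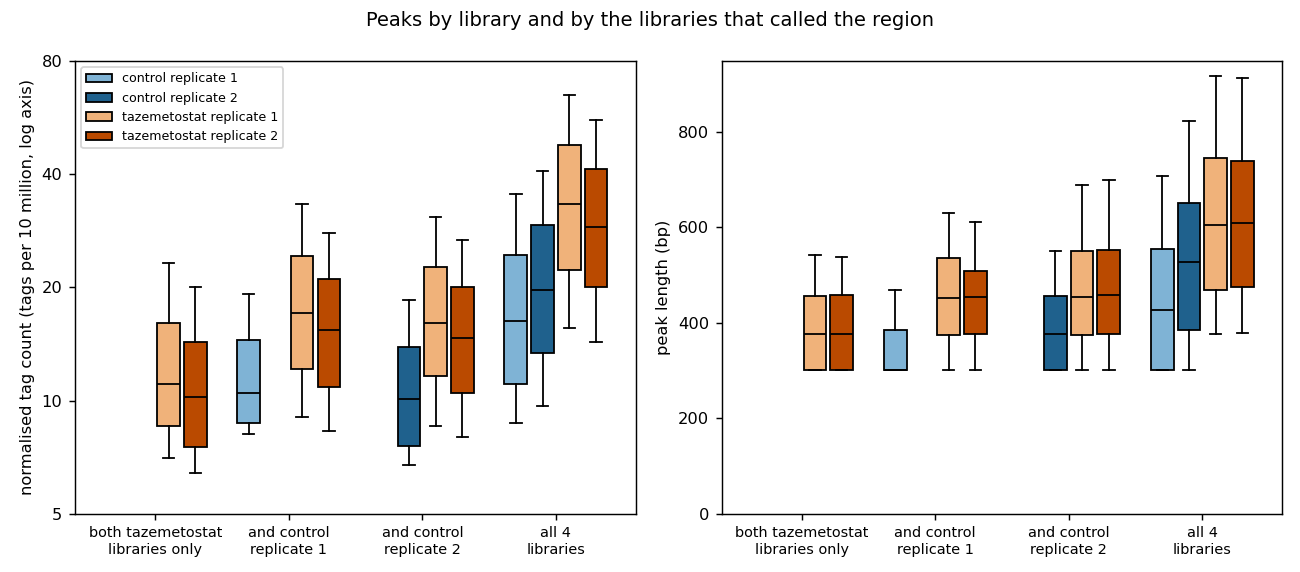
Normalised tag count (left, tags per 10 M mapped tags on a log axis) and peak length (right, bp) for each set of regions and library; the line in a box is the median, the box spans the quartiles and the whiskers the 10th to 90th percentile over regions. Regions called in one control library sit between those called in the tazemetostat libraries only and those called in all 4, with tazemetostat medians of 14.7 to 17.1 against 10.2 to 11.1 and 29.0 to 33.3. This order is tied to the tag threshold of the calls.

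The control peak was lower than both tazemetostat peaks in 71.3% of the regions called in control replicate 1 and in 73.8% of those called in control replicate 2. Among regions called in all 4 libraries the shares were 89.8% for control replicate 1 and 85.5% for control replicate 2. A control below both treated libraries was thus less frequent in the members than in the shared regions. In a member the control compared is the one whose peak was called, and the other control has no value. The rule that chose the regions therefore bears on these shares and on the ratios below. Its part cannot be separated from a trait of the regions. The control was above both tazemetostat peaks in 8.80% and 6.33% of the members, against 3.65% and 4.03% of the regions called in all 4. The median ratio of the tazemetostat mean to the control was 0.53 and 0.55 on the log2 scale in the members, compared with 0.86 and 0.61 in the shared regions for the same control libraries. The direction rested on the scaling: after each library was divided by its median tag count over the shared regions, a step called centring here, the members' medians became −0.42 and −0.10, and 11.9% and 28.3% had the control below both, against 32.5% and 33.2% of the shared regions. The control was then above both in 69.3% and 43.8% of the members and in 47.0% and 41.2% of the shared regions. The medians used for centring were 15.7 and 19.3 in the controls and 32.3 and 28.2 under tazemetostat. Per kilobase of peak the medians were 0.17 and 0.29.

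The peaks also differed in length. Control peaks of the members had a median length of 300 bp in control replicate 1, the shortest length the caller reports, and 376 bp in control replicate 2, and tazemetostat peaks in the same regions had medians of 451 to 457 bp. In 62.4% and 45.4% of the members the control peak was no longer than 300 bp, against 27.1% and 12.4% in regions called in all 4 libraries. Merged regions had a median length of 534 bp in the members, 693 bp in regions called in all 4 and 441 bp in those called under tazemetostat only. Merging peaks of more libraries can only lengthen a region, so this order too is tied to the rule. The control peak lay wholly inside the span of the tazemetostat peaks in 65.0% and 60.7% of the members with 1 peak per library. A median of 292 and 300 bp was common to all 3 peaks, whereas 24 and 83 regions had no base common to all 3 and were joined through a chain of overlaps.

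The fold over local background, which compares the tag density of a peak with the surrounding 10 kb, behaved otherwise. For the regions called in control replicate 1 its median was 5.39 in that library, against 5.65 and 5.16 in the tazemetostat replicates. For the regions called in control replicate 2 the medians were higher, 6.31, 7.22 and 6.29. Regions called in all 4 libraries had 6.93, 6.04, 6.77 and 6.09, and regions called under tazemetostat only had 6.60 and 5.82. The members thus did not lie between the other sets on this measure, and the local fold of the treated peaks exceeded that of the control peak by a median factor of 1.03 and 1.10 in the members.

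The share of regions with a single control call differed across bins of the tag count and hardly across bins of the local fold. A control call has a tag threshold of 14 in replicate 1 and 16 in replicate 2. The course over the tag count is therefore tied to the calling rule. Among regions called in both tazemetostat libraries, the share with a single control call was 17.5% at a mean tag count under 8. It reached 44.4% between 12 and 16, and fell to 2.98% at 48 or more. Regions called under tazemetostat only gave way to regions called in all 4 across the same range, from 79.9% to 1.09% and from 2.62% to 95.9%. Across bins of the mean local fold the share with a single control stayed between 27.5% and 28.7%. Within the members, the part called in control replicate 1 went from 32.4% at a local fold of 4 to 5 down to 11.1% at 12 or more.

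**Figure D2:**
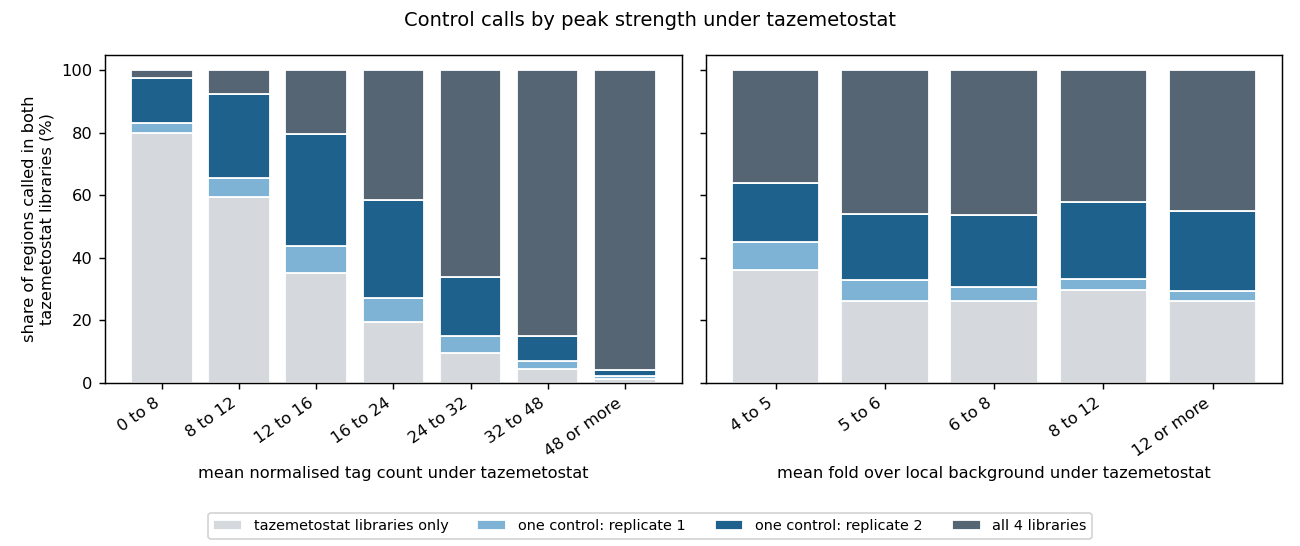
Share of the regions called in both tazemetostat libraries (%, stacked) that were also called in no control, in one control or in both, by mean normalised tag count (left) and mean fold over local background (right) under tazemetostat. The one-control share peaks at 44.4% between 12 and 16 tags per 10 M and is 27.5% to 28.7% in every bin of the local fold. The course over the tag count is tied to the tag threshold of the calls.

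The overlap rule sets few of these calls at its edge. Just inside it, 2 and 6 members with a control peak in replicate 1 and replicate 2 had only 1 to 10 bp common to all 3 peaks. Just outside it, the library without a call had a peak within 10 bp of the region in 4 and 1 members, and in 4 and 1 regions called under tazemetostat only for control replicates 1 and 2. A peak of the missing control library lay within 1 kb of 10.4% of the members called in control replicate 1 and of 5.63% of those called in control replicate 2.

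Of the members, 10400 lay on the primary chromosomes and were placed against GENCODE release 44. Promoters, counted from 1 kb upstream to 100 bp downstream of a transcript start, held 26.0% of them, introns 43.5%, intergenic DNA 25.1% and exons 5.38%. The promoter share was 28.3% in the regions called in control replicate 1 and 25.4% in those called in control replicate 2, between the 41.7% of regions called in all 4 libraries and the 17.8% of those called under tazemetostat only. The median distance to the nearest transcript start of a protein-coding gene followed the same order. It was 8678 and 11246 bp in the members, 4495.5 bp in the shared regions and 14518 bp in those called under tazemetostat only. Nearest starts named below are also those of protein-coding genes. Promoter members were stronger than the others, with a median tazemetostat mean of 19.4 against 14.5 outside promoters, and had a lower local fold in the control, 5.52 against 6.33. Regions called in control replicate 1 had a higher GC content (median 54.5%) than those called in control replicate 2 (51.5%). Across chromosomes the part called in control replicate 1 ran from 10.0% of the members on chromosome 13 to 31.1% on chromosome 20.

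**Figure D3:**
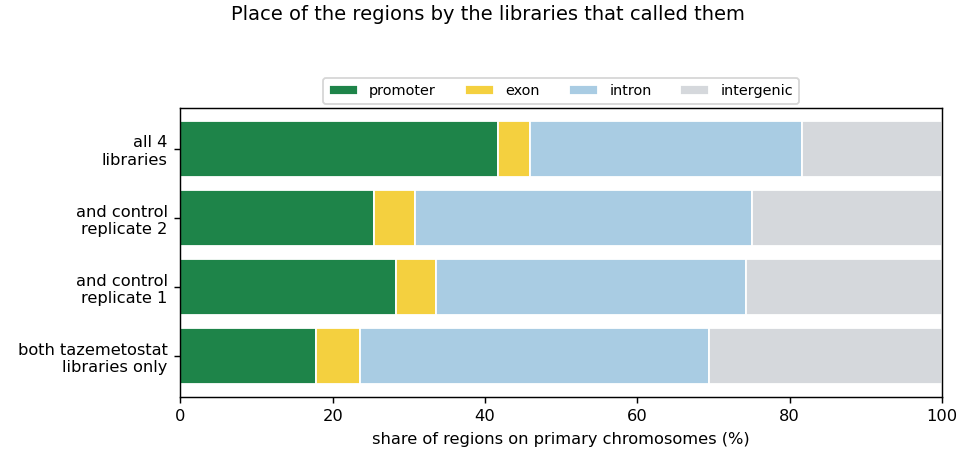
Share of regions (%, primary chromosomes) whose centre lay in a promoter, exon, intron or intergenic DNA, by the libraries that called the region. Promoters take 28.3% and 25.4% of the regions called in one control library, against 41.7% in all 4 libraries and 17.8% in the tazemetostat libraries only.

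Motif matches in the central 200 bp, searched on both strands, differed between the sets. The window was the same for all, while median region length was 534 bp in the members and 693 bp in the shared regions. It was 441 bp in regions called under tazemetostat only, so the part of a region searched differed between the sets. The ETS motif CCGGAAGT, the SP/KLF motif GGGGCGGGG and the NRF1 motif, all common in promoters, were found in 1.40%, 4.92% and 1.59% of the members, against 2.56%, 7.23% and 2.89% of the shared regions and 0.870%, 3.40% and 0.739% of those called under tazemetostat only. Within promoters the same order held for ETS (4.74% in the members, 5.74% in the shared regions and 3.46% under tazemetostat only) and NRF1 (5.56%, 6.58% and 3.25%). SP/KLF stood at 15.7%, 15.5% and 13.3% there. The liver motifs CAAAGTCCA (HNF4), TGTTTAC (FOXA) and TTGCNNAA (CEBP) occurred in 1.99%, 8.20% and 10.7% of the members, compared with 1.63%, 7.03% and 9.61% of the shared regions and 2.06%, 7.92% and 12.5% of those called under tazemetostat only. Outside promoters these 3 shares were 2.45%, 10.00% and 12.5% in the members, 2.35%, 10.5% and 12.8% in the shared regions and 2.28%, 8.90% and 13.9% under tazemetostat only. The core motif of CTCF, an insulator protein, was found in 0.894% of the members, 0.361% of the shared regions and 1.19% of those called under tazemetostat only. The AP-1 motif TGANTCA was found in 9.20%, 8.56% and 9.72% and the HNF1 motif in 1.25%, 1.16% and 1.09% of the same sets. Over all 78220 merged regions on primary chromosomes, the shares were 1.02% for ETS, 3.55% for SP/KLF, 1.10% for NRF1, 1.48% for HNF4, 6.50% for FOXA, 9.50% for CEBP, 0.802% for CTCF, 8.35% for AP-1 and 0.765% for HNF1. Outside promoters the CTCF order was unchanged, at 1.08%, 0.523% and 1.32%.

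In the values below, the first is the control library that called the peak and the next 2 are tazemetostat replicates 1 and 2. Individual regions were followed at the ends of the ranking, among the 39 and 406 regions with at least 50 recovered tags in each of their 3 libraries. The promoter of PLCD1, a phospholipase C that cleaves membrane phosphoinositides, had 27.3 in control replicate 2 and 79.6 and 74.9 in tazemetostat replicates 1 and 2. The control value rested on 65 tags (95% exact Poisson interval 50.2 to 82.8, counting error only), and the ratio of the treated mean to the control was 2.83, the highest of this group, or 1.81 after centring. The promoter of SLC25A45, a mitochondrial carrier, had 23.1 in control replicate 2 and 70.5 and 44.8 under tazemetostat. Both treated values were above the control, but the replicates differed by more than they did at PLCD1. An intron of AHDC1 (21.8, then 52.9 and 53.8) and the promoter of SH3GLB1, a membrane-bending endophilin (22.3, then 62.5 and 46.3), had the next ratios, 2.45 and 2.44. In all 4 of these regions the control also lay below both treated libraries after centring.

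Among the regions called in control replicate 1, the promoter of SFXN5, a mitochondrial sideroflexin, led with 29.1 in the control and 52.4 and 68.1 under tazemetostat, a ratio of 2.07 on 50 control tags (interval 37.1 to 65.9). An intergenic region upstream of SLC6A19, a neutral amino acid transporter, and the promoters of SPHK1, which makes sphingosine-1-phosphate, and STX5, a Golgi fusion protein, had ratios of 1.90, 1.88 and 1.73. In all 4 of these regions both tazemetostat values were above the control as deposited, and in none of them after centring, where the ratio at SFXN5 was 1.09. The SPHK1 region also lies inside PRPSAP1, so its tags cannot be assigned to SPHK1 alone. The strongest promoter called in control replicate 1, at the organic anion transporter gene SLCO4A1, had 72.7 in the control and 124 and 98.6 under tazemetostat. An exon of CCDC200 had 52.9, then 95.7 and 61.0.

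The strongest regions called in control replicate 2 were an exon within SDR42E2 (96.6, then 146.6 and 135.1), the promoter of CIDEB, a lipid droplet protein of hepatocytes (55.5, then 89.7 and 70.4), and that of CPSF4L (48.7, then 78.1 and 77.9), ahead of PLCD1. In each of them the treated peaks were higher in both replicates as deposited, with ratios of 1.46, 1.44 and 1.60, which centring took to 0.932, 0.917 and 1.03. The CIDEB region also lies inside LTB4R2 and NOP9, so its tags cannot be assigned to CIDEB alone.

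At the other end stood the regions with the lowest ratios of treated to control signal. The intron of TMEM242, a mitochondrial membrane protein, had 72.3 in control replicate 2 and 59.0 and 45.2 under tazemetostat. An intergenic region on chromosome 10, chr10:133688130-133688848, had 222.8 in control replicate 1 and 188.5 and 88.1 under tazemetostat, and the chromosome 4 repeat had 74.5, then 48.4 and 48.9. An exon of MUC3A, a membrane mucin with a repetitive coding sequence, had 129.7, then 100.3 and 91.5. In these 4 regions the control was above both treated libraries, also after centring, while the other control library listed no peak. A missing call is not a missing signal. The called control peaks held 172, 383, 128 and 223 tags. Their local folds were 4.04, 4.32, 4.47 and 4.39, near the 4 that the caller required. Whether this filter removed the peak of the other control was not tested. The self-identity of these 4 regions at the best shift of 5 to 100 bases was 89.5%, 55.0%, 90.3% and 67.9%, compared with a median of 33.6% over all members. The promoter of HGH1 had 32.6, then 28.7 and 28.6. Introns of PLA2G15, a lysosomal phospholipase (29.4, then 30.2 and 18.8), and PACSIN3 (46.2, then 37.8 and 44.4) and a region on chromosome Y completed the lowest ratios.

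Repetitive DNA was more frequent among members with the higher control. Self-identity over 60% was found in 39 of 701 members with the control above both treated libraries (5.56%) and in 22 of 7651 with the control below both (0.288%). After centring the shares were 1.32% and 0.306%, in the same order. It was found in 0.808% of all members, 1.92% of regions called in all 4 libraries and 0.487% of those called under tazemetostat only. Among the 276 shared regions with both controls above both treated libraries, 53.6% passed the same threshold. This measure was chosen after the values of the ranked regions were seen.

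To relate the regions to genes, the promoters of 20007 protein-coding genes were examined. A member lay at a promoter of 2345 genes (11.7%). In 1995 genes (9.97%) it did so with no region called in all 4 libraries at any promoter of the gene, and these are called one-control promoters here. Of the 9712 genes with a promoter region in both tazemetostat libraries, called open below, one-control promoters were 20.5%. The gene lists below are read against this share, as a description. Ratios and directions are as deposited unless centring is named.

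**Figure D4:**
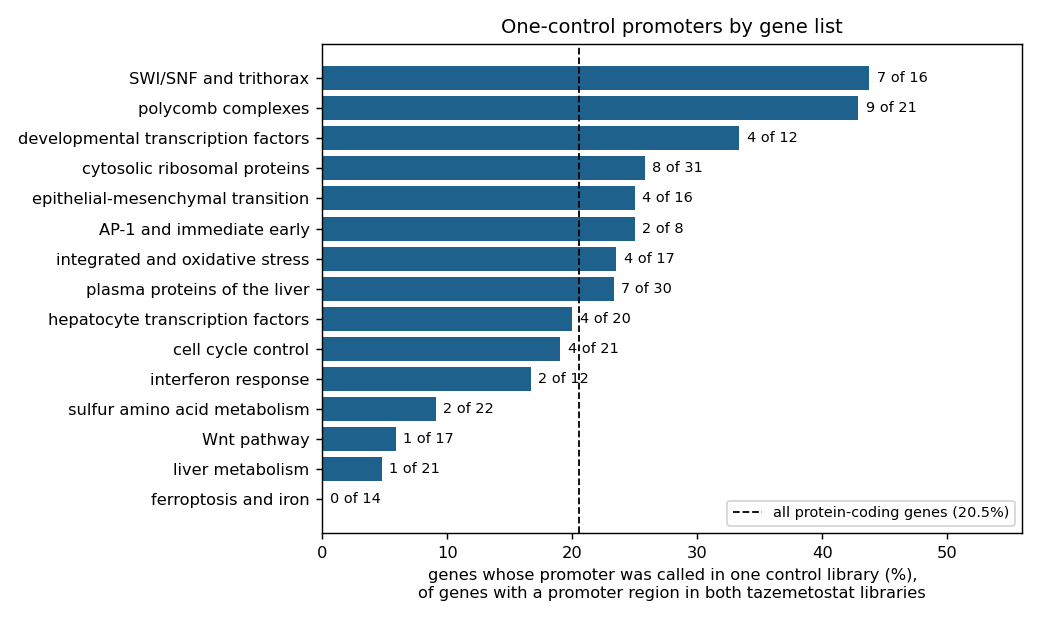
Genes with a one-control promoter as a share (%) of the genes of each list whose promoter had a region in both tazemetostat libraries, with counts beside the bars; the dashed line is the share over all protein-coding genes (20.5%). The SWI/SNF and polycomb lists stand at 7 of 16 and 9 of 21, and the ferroptosis list at 0 of 14.

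The polycomb list, which holds genes of polycomb repressive complexes 1 and 2 and genes that counter them, had 9 one-control promoters among 21 open ones (42.9%). Tazemetostat inhibits EZH2, a subunit of complex 2. EZH2 itself was not among the one-control promoters: its promoter was called in all 4 libraries. At the promoter of RNF2, the ubiquitin ligase of polycomb repressive complex 1, control replicate 2 had 15.1 and tazemetostat replicates 1 and 2 had 40.8 and 25.9. At PHF1, a polycomb-like accessory protein, the values were 23.9, 29.7 and 25.6. At EED, the core subunit that reads methylated histone H3, they were 22.3, 27.2 and 24.1. At PHF1 and EED the control was nearer to the second treated replicate than the treated replicates were to each other. BAP1, which removes the ubiquitin that polycomb adds to histone H2A, was called in control replicate 1 with 11.6, then 30.7 and 14.3. The nearest transcript start to that region is of PHF7, so its tags cannot be assigned to BAP1 alone. The remaining 5 were SUZ12, RBBP7, MTF2, PHF19 and PHC1. The control was below both treated libraries at 8 of the 9 as deposited, with PHC1 the exception (12.6, then 13.6 and 6.02), and at 3 of the 9 after centring. The list's median log2 ratio was 0.92 as deposited and −0.02 centred. Over all members called in control replicates 1 and 2 the medians were 0.53 and 0.55 as deposited and −0.42 and −0.10 centred. Members at promoters had a median of 0.59 as deposited. Of the 9 regions of the list, 1 was called in control replicate 1.

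Genes of the SWI/SNF remodelling complex and the trithorax group, which oppose polycomb, had 7 one-control promoters among 16 open ones (43.8%). KMT2B, a histone H3 lysine 4 methyltransferase, had 26.2 in control replicate 1, then 39.8 and 32. PBRM1, the polybromo subunit of SWI/SNF, had 12.6 in control replicate 2, then 31.2 and 29.7, a ratio of 2.42. ARID2, which sits in the same form of the complex, had 18.5, then 31.7 and 23. At SMARCD1 the control value of 22.3 fell between the treated values of 25.7 and 21.1. SMARCC2, BRD9 and KMT2D completed the list, and the control was below both treated libraries at 5 of the 7 as deposited and at 1, PBRM1, after centring, with median log2 ratios of 0.33 and −0.50.

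Secreted plasma proteins of the liver had 7 one-control promoters among 30 open ones (23.3%), close to the share over all genes. C3, the central complement component, carried 2 such regions. The stronger had 36.6 in control replicate 2, then 68.0 and 56.8, and the other had 27.7, then 47.4 and 48.6. AMBP, the precursor of alpha-1-microglobulin and bikunin, had 19.8 in control replicate 1, then 48.4 and 35.8. C4BPA, a complement regulator and the promoter with FOXA and HNF1 matches shown above, had 15.5 in control replicate 2, then 31.2 and 18.8. RBP4, the retinol carrier of plasma, had 11.1 in control replicate 1, then 23.2 and 21.1. Treated values were above the control at each of these 5 regions as deposited, and at all of them except C4BPA after centring. APOM, SERPINA3 and F12 completed the list. At SERPINA3 the control lay between the treated libraries (19.8, then 24.2 and 16.2) and at F12 above both (21.8, then 16.1 and 20.3). Over the 8 plasma protein regions the control was below both at 6 as deposited and at 5 after centring.

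Hepatocyte transcription factors had 4 one-control promoters among 20 open ones (20%). At CEBPA, a CCAAT-binding factor of hepatocyte differentiation, control replicate 2 had 30.3 and tazemetostat replicates 1 and 2 had 29.7 and 28.6. The control was thus slightly above both, or by more after centring, although control replicate 1 listed no peak. The peak in control replicate 2 held 72 tags at a local fold of 4.08, near the required 4. NR2F2, an orphan nuclear receptor, had 15.1 in control replicate 1, then 26.7 and 21.5. PROX1, a homeobox factor of early liver cells, had 2 regions, with 11.8, then 26.7 and 18.4 at one and 7.56, then 13.6 and 24.5 at the other. NR1I2, the xenobiotic sensor PXR, had 7.56, then 14.1 and 20. As deposited the control was below both treated libraries at 4 of these 5 regions, and at 3 after centring. HNF4A had its promoter called in all 4 libraries and no member within 10 kb.

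At the albumin gene ALB, whose promoter carried no peak in any library, 4 members lay in the gene or within 10 kb. The intronic one called in control replicate 1 had 8.73, then 17.1 and 16.2, and was below both treated libraries. The other intronic one had 8.40 in control replicate 2, then 13.1 and 10.2. The flanking pair had 13.0, then 7.56 and 13.9, and 7.56, then 7.05 and 7.15. Over all protein-coding genes, 33.9% had a member in the gene or within 10 kb.

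Among genes of sulfur amino acid metabolism, the pathway the study follows, 2 of 22 open promoters (9.09%) were one-control promoters. Neither BHMT nor CDO1 had a member in the gene or within 10 kb, and the promoters of both had a region called under tazemetostat only. BHMT2, the neighbouring paralog of BHMT that remethylates homocysteine, had 19.7 in control replicate 2 and 17.6 and 16.2 under tazemetostat. This region is also at a promoter of DMGDH, the dimethylglycine dehydrogenase gene, so its tags cannot be assigned to either gene. The control was above both treated libraries there, with a ratio of 0.858 as deposited and 0.548 centred. SARDH, which degrades sarcosine, had 20.6 in control replicate 2, then 41.3 and 33.9, and stayed below both after centring.

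None of 14 open promoters in the ferroptosis and iron list was a one-control promoter. TFRC, the transferrin receptor gene, had a member at a promoter (12.2, then 25.7 and 19.2). It also had a region called in all 4 libraries at the same or another promoter. AIFM2, which encodes the ferroptosis suppressor FSP1, had an intronic member 1612 bp from the nearest start, with 15.1 in control replicate 1, then 29.2 and 24.1. CDH1, which encodes E-cadherin, had 2 members called in control replicate 1, with 8.73, then 12.1 and 11.7 upstream and 13.4, then 19.1 and 17.3 in an intron. No member lay in or within 10 kb of PCK1, IGFBP4, SLC7A11, NFS1 or EZH2.

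**Figure D5:**
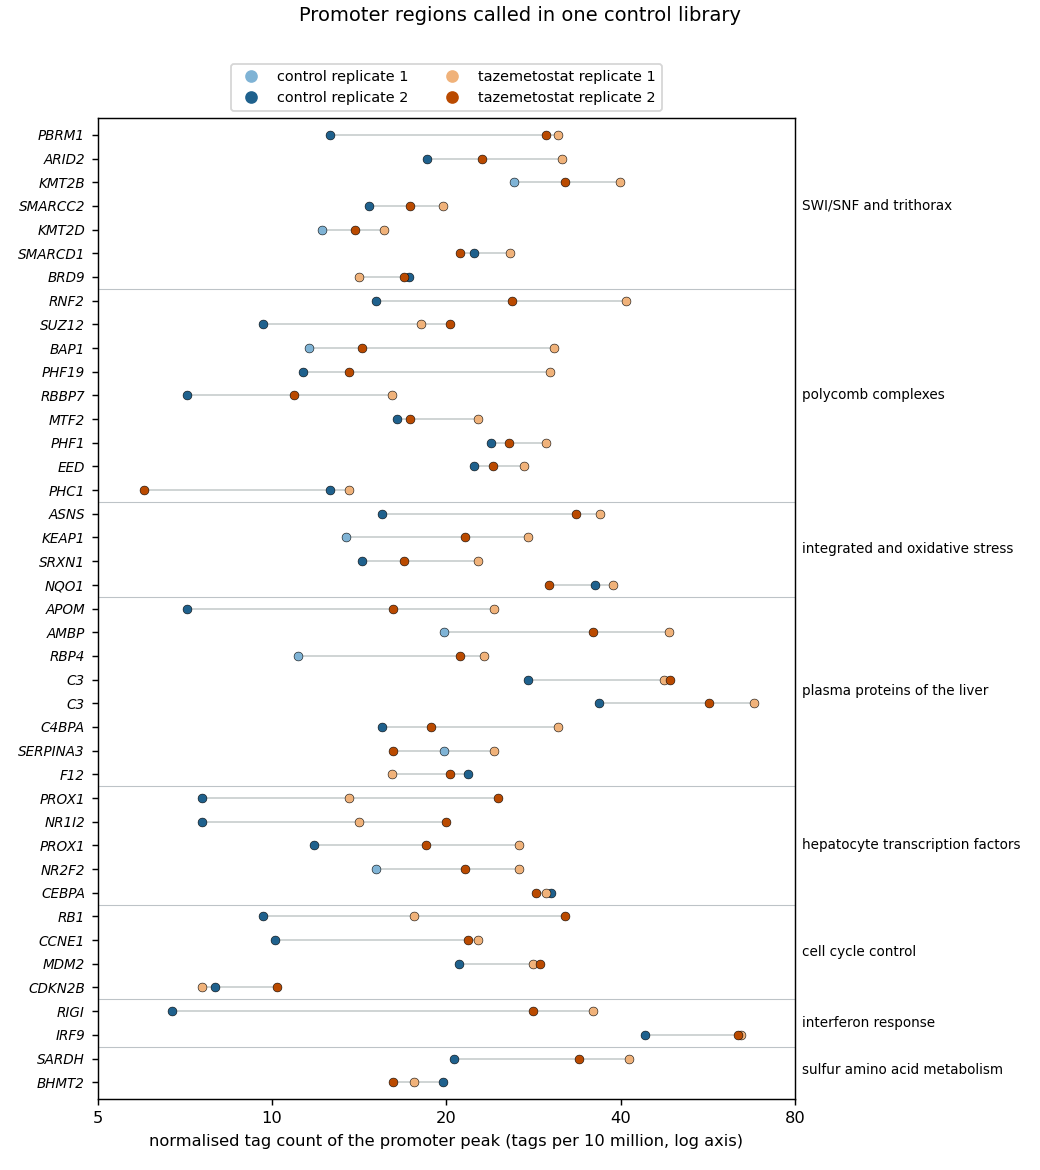
Normalised tag count (tags per 10 M mapped tags, log axis) of each library at the one-control promoters of 8 gene lists, 1 row per region; a grey line joins the lowest and highest value, and the control library without a peak has no point. The control point lies left of both tazemetostat points in 32 of 41 rows (17 after centring), by most at RIGI (6.72 against 35.8 and 28.2), and right of both at BHMT2, CEBPA, F12 and BRD9.

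RIGI, the cytosolic sensor of viral RNA, had 6.72 in control replicate 2, then 35.8 and 28.2, a ratio of 4.76 that rested on 16 control tags, the threshold of that library, and of 3.03 after centring. IRF9, the DNA-binding subunit of the interferon-induced complex ISGF3, had 44.1, then 64.5 and 63.6, a ratio of 1.45 that centring took to 0.930. These were the one-control promoters among 12 open ones in the interferon list (16.7%). In the list of the integrated and oxidative stress response, 4 of 17 were (23.5%). ASNS, the asparagine synthetase, had 15.5 in control replicate 2, then 36.8 and 33.5. KEAP1, the sensor that holds NRF2 in check, had 13.4 in control replicate 1, then 27.7 and 21.5. SRXN1, a sulfiredoxin, had 14.3, then 22.7 and 16.9. At NQO1, a quinone reductase, the control value of 36.1 lay between 38.8 and 30.1. Over the 6 members at promoters of this stress list, the control was below both treated libraries at 5 as deposited and at 1 after centring.

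In the list of epithelial-mesenchymal transition, 4 of 16 open promoters (25.0%) were of this kind. ZEB1, a repressor of epithelial genes, had 8.82 in control replicate 2, then 30.7 and 27.1, a ratio of 3.27 on 21 control tags, or 2.09 after centring. CDH2, the N-cadherin gene, had 12.2, then 18.1 and 15.4, and SNAI2, another such repressor, had 8.40, then 15.6 and 13.2. SMAD3, which carries TGF-beta signals to the nucleus, went the other way, with 16.8 in control replicate 2, then 8.06 and 9.03. The control was below both treated libraries at 3 of these 4 promoters as deposited and at 2 after centring.

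Cell cycle genes had 4 of 21 (19.0%). MDM2, the ligase that degrades p53, had 21.0 in control replicate 2, then 28.2 and 29.0. RB1, the retinoblastoma protein gene, had 9.66, then 17.6 and 32. The control was below both treated libraries at both as deposited and at RB1 after centring, and the treated replicates of RB1 stood further apart than those of MDM2. CDKN2C, an inhibitor of cyclin-dependent kinases, carried members at promoters (21.0, then 40.8 and 31.6 at the stronger, whose nearest start is of FAF1). CCND3, a D-type cyclin, also had a member at a promoter (27.3, then 30.7 and 24.8). Both genes had a region called in all 4 libraries at the same or another promoter.

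Developmental transcription factors, a class that polycomb silences in many cell types, had no promoter region in any library at 55 of 86 genes, against 41.1% of all protein-coding genes, and 4 of 12 open promoters (33.3%) were one-control promoters. DLX1, a homeobox factor, had 21.0 in control replicate 2, then 39.8 and 32.8. MSX1, another, had 29.0, then 32.8 and 14.3, with the control between the treated libraries. POU4F1, a neural POU factor, had 8.14 in control replicate 1, then 13.6 and 10.9. RUNX1 had a member at a promoter, with 7.98, then 16.6 and 13.6, and a shared region at the same or another promoter. SOX2 was the remaining one. Over these 5 regions the control was below both treated libraries at 3 as deposited and at 2 after centring.

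Ribosomal protein genes, which every cell transcribes, had 8 of 31 (25.8%). RPL5 had 13.4 in control replicate 2, then 32.3 and 33.9, and RPL30 had 18.5, then 23.2 and 26.0. RPS23 had 8.14 in control replicate 1, then 27.2 and 21.1, and RPL35 had 16.9, then 31.7 and 13.6, in a region whose nearest start is of ARPC5L. The control was below both treated libraries at 7 of the 8 as deposited and at 2 after centring. In the AP-1 list the one-control promoters were FOSB (16.4, then 30.2 and 22.2) and FOSL1 (12.8, then 21.2 and 18.8), subunits of the AP-1 dimer, 2 of 8. MYC had a member at a promoter, with 22.3, then 40.3 and 29.7, and a region called in all 4 libraries at the same or another promoter. The Wnt list had 1 of 17, TCF7L1, a TCF repressor (8.14, then 13.1 and 11.7). RNF43, which removes Wnt receptors, had a member at a promoter (22.3, then 31.2 and 36.1) and a shared region at the same or another promoter. Liver metabolism had 1 of 21, IGFBP1, an insulin-responsive binding protein (29.1, then 37.8 and 41.8). As deposited the control was below both treated libraries at 3 of 3 AP-1 regions, MYC included. The same held at 2 of 2 Wnt regions, RNF43 included, and at IGFBP1. After centring it was below both at 0 of these regions.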

How the data were processed

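Per the labels and methods, the authors used Trim Galore 0.6.6 for trimming, Bowtie2 2.3.5.1 for alignment to hg38 and HOMER 4.11.1 for calling peaks, library by library. Per the file headers a peak needed 14 or 16 tags, by library, and a fold of 4 over the surrounding 10 kb, at a false discovery rate of 0.001; the study's methods state another, less strict rate. The deposited signal is the normalised tag count, given per 10 M mapped tags of the library. A deposited score per peak, taken here as the tags of an initial 300 bp peak, is not defined in the headers. The deposited fold over local background is a ratio and was used as given. The deposited p-value and clonal fold were not used. The headers do not mention a shift of tags for the transposase.

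Normalised counts were turned back into tags with the mapped total, and 100% came out whole to within 0.25. These are the recovered tags. Depth was 17191428 and 23800380 mapped tags in control replicates 1 and 2 and 19844503 and 26564400 in tazemetostat replicates 1 and 2. No molecular identifiers are named, so intervals cover counting error only. Groups and replicate numbers came from the sample titles.

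Peaks were merged by overlap of at least 1 bp with Python 3.11.15, numpy 2.4.6, pandas 2.3.3 and scipy 1.17.1. Where a library had several peaks in a region (in any library, 3.41% of the members), tag counts and lengths were summed and the local fold is that of the highest peak. Region centres were annotated with GENCODE release 44, and 269 members outside the primary chromosomes were left out of that step. Sequence was read from hg38. Some sequences are not reported here. Motifs were exact matches on both strands in 200 bp, some of which can overlap. Self-identity is the share of equal bases after shifting the central 300 bp by 5 to 100 bases, at the best shift.

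The regions and gene lists were chosen with earlier results of these data known. Named were, per called control library, the 4 regions with the highest tazemetostat mean and, with at least 50 tags in each library, the 4 highest and 4 lowest ratios to the control, then up to 4 genes per list by tazemetostat mean and the genes the study follows. No test was made, since the choice used the contrast and a control library has no value in every region. Merging was tested on simulated data. Alternatives were a stricter overlap, a stricter local fold, equal numbers of peaks, each library left out, other scalings and other promoter definitions.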

Additional observations from a re-analysis of the deposited data

How the results depend on the processing

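With an overlap of at least 50% of either peak there were 10595 regions against 10669, with a median tazemetostat mean of 15.55 against 15.5. The median log2 ratio stayed at 0.54. Promoters held 26.2% of these regions, and the control was below both treated libraries in 73.5%. With only peaks of a local fold of 8 or more, there were 2949 regions, with 18.7% in promoters and the control below both treated libraries in 79.8%. With the 26133 strongest peaks of each library there were 4581 regions, with a median tazemetostat mean of 22.3, a median log2 ratio of 0.73, 35.3% in promoters and 88.8% with the control below both. Dividing each library by its median over shared regions turned the median log2 ratio from 0.54 to −0.16 and took the share with the control below both from 73.3% to 25.0%. Per kilobase of peak these were 0.26 and 64.7%. Counting any overlap with a promoter gave 29.2% and only starts of coding genes 21.1%, against 26.0%.

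Leaving out each library in turn, with the rule applied to those that remained, gave 12693 to 24976 regions. The promoter share was 24.1% to 40.2%, the median tazemetostat tag count 13.6 to 28.95 and the median log2 ratio 0.39 to 0.82. Without control replicate 1 or 2 the share below both treated libraries was 81.5% and 87.7%. Without tazemetostat replicate 1 or 2 a single treated library remained, and the tag count and ratio are its own. The control was below that library in 75.9% and 83.1%, a less strict condition than below both. The highest count came without control replicate 1, where 24976 regions had a peak in control replicate 2, and 18550 were found without control replicate 2; without a control the rule no longer separates these regions from those called in all 4 libraries. No paired analysis was possible because the values come from no test and every region lacks a value in 1 control library. Control peaks of 18 to 24 tags limit what single regions can show.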

Other observations

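Some genes held many of the regions inside or up to 10 kb beside them. SYN3, a synapsin gene whose introns hold TIMP3, had 15, MAP4K4, a kinase of stress signalling, had 11, RUNX1, a runt-domain transcription factor, had 10, and IGF1R, the receptor of insulin-like growth factor 1, and NFIA, a nuclear factor I, had 9 each. In the same windows there were 8, 4, 10, 3 and 5 regions called in all 4 libraries. These genes were chosen after their values were seen, and they are long, with 550562 bp in SYN3 and 1216867 bp in RUNX1.

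The share of one-control regions among those called in both tazemetostat libraries was highest on chromosome Y, at 40% with 30 members. It was 34.1% on chromosome X, 32.5% on chromosome 18 and lowest on chromosome 20, at 25.3%, against 28.0% over all. No correction for the copy number of chromosomes was made here or in the values above, and its part was not tested.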
